A study of Caenorhabditis elegans with 3 samples.

Results

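The genes described here are mes-2, mes-3, mes-4, mes-6 and mrg-1 of the nematode Caenorhabditis elegans, which encode chromatin proteins known for their work in the germline. They were chosen by name, as the probes whose platform gene symbol is one of these 5 and which had a value on all 3 arrays, and all 5 were found among the 15062 genes tested, each on 1 probe. RNA came from early young adult hermaphrodites, with genotype and hours of age not given in the labels, and each of 3 preps was hybridised on a two-colour DNA microarray against a mixed reference of wild-type mRNA. A value is thus the log2 of the worm signal over the signal of that pool, where 0 means an equal signal and 1 means a doubled one. The labels do not say which stages and sexes the pool holds, and no other group of worms was analysed here, so the reference stands in for a control.

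MES-2, MES-3 and MES-6 form the worm's Polycomb repressive complex (PRC2), which methylates lysine 27 of histone H3 (H3K27), a mark of silenced chromatin. MES-4 methylates H3K36 and carries that mark of germline expression from the parent's germline into the embryo, and MRG-1 is a chromodomain protein of the family that reads H3K36 methylation. Mothers that lack any of the MES proteins have sterile offspring whose germ cells degenerate, and in the germline PRC2 keeps MES-4 concentrated on the autosomes and the X chromosome silent.

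The ratios likely run worms over reference. The basis is the labels, by which the pool was in channel 1 and the prep in channel 2, but the dyes are not given, and a turned sign would reverse each direction below. Cuticle collagen genes lay on both sides of 0, with col-19, known as an adult collagen and picked out after its value was seen, at 2.60 ± 0.06 (SD, n = 3), against −2.46 for rol-6, −1.56 for sqt-3 and −1.49 for dpy-7. The log2 ratios of preps 2 and 3 correlated at Pearson's r of 0.909 over 19664 probes, whereas prep 1 correlated with preps 2 and 3 at 0.803 and 0.775, a description over probes that share the arrays. The labels do not say whether the preps are separate cultures, so the variation behind the p-values is that among the 3 preps, which could be technical variation. Each limma p-value from all 3 preps draws on the gene's own variation and on the variance shared across all genes. Without prep 2, in contrast, the p-values of the genes named here followed the size of the mean alone. Thus cfp-1 and hpl-2, unlike in spread, were both at 0.4425 with a limma adjusted p of 0.146. The p-values without prep 2 given below therefore do not reflect a gene's own spread. The labels pair each prep with an array of its own, so prep and array cannot be told apart. In whole-worm RNA, more germ cells and more RNA per germ cell cannot be told apart either.

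Of the 5 genes, 3 were above the reference and 2 did not pass the test, which was limma's one-sample test against 0 with Benjamini-Hochberg adjustment at 0.05 over all genes. Of all genes tested 44.0% passed in either direction, with 21.7% of all genes above the reference and 22.2% below, and 0 of the 5 members were below by limma, also at an unadjusted p of 0.05. The 3 members that passed were above 0 on all arrays, as were 33.1% of all genes, while 0 members were below 0 on all arrays, as were a further 33.1%. The genes above were mes-4, mrg-1 and mes-6, and the genes that did not pass were mes-2 and mes-3. The members' median log2 ratio was that of mes-6, at 0.64, against 0.0021 over all genes tested. Calls over all genes shifted when a prep was left out, from 3275 above and 3347 below with all preps. They were 3841 and 3923 without prep 1, 2276 and 2334 without prep 2, and 2459 and 2458 without prep 3. Calls gained or lost below with a prep left out stand beside that shift.

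The gene for the H3K36 methyltransferase, mes-4, on chromosome V, had log2 ratios of 0.45, 1.36 and 0.80 in preps 1, 2 and 3. All preps were above 0, prep 2 was the highest and prep 1 the lowest, and the spread was wide. The mean was 0.87 ± 0.46 (SD, n = 3), which is 1.83-fold above the reference with a 95% interval of 1.39 to 2.41 (limma adjusted p = 0.00324). Without prep 2 the mean was 0.63 (adjusted p = 0.0275), and the SD of mes-4 exceeded that of 90.9% of genes.

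The chromodomain gene mrg-1, on chromosome III, had log2 ratios of 0.59, 0.99 and 0.85 in preps 1, 2 and 3. Its preps kept the same order as those of mes-4, with prep 1 lowest and prep 2 highest, over a narrower range. The mean was 0.81 ± 0.20 (SD, n = 3), or 1.75-fold above the reference with a 95% interval of 1.41 to 2.17 (limma adjusted p = 0.00128).

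Among the genes for the PRC2 subunits, mes-6 on chromosome IV was the one that passed. It encodes a WD-repeat protein, the counterpart of Drosophila Extra sex combs. Its log2 ratios were 0.67, 0.56 and 0.69 in preps 1, 2 and 3, so that all preps were above 0 and within 0.14 of one another, a SD above that of only 8.2% of genes. The mean was 0.64 ± 0.07 (SD, n = 3), or 1.56-fold above the reference with a 95% interval of 1.28 to 1.91 (limma adjusted p = 0.00307). A further probe, which the platform lists for mes-6, cks-1 and C09G4.4 together, was at 0.25, 0.67 and 0.64, all above 0 as well. Its signal cannot be assigned to 1 of the 3 genes, and it was kept out of the values for mes-6.

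The gene for the catalytic subunit, mes-2, on chromosome II, encodes the worm counterpart of Drosophila Enhancer of zeste. Its log2 ratios were 0.59, −0.06 and 0.26 in preps 1, 2 and 3, the opposite order to that of mes-4, with prep 1 highest and prep 2 just under 0. The mean of 0.26 ± 0.32 (SD, n = 3) did not pass (limma adjusted p = 0.205), with a 95% interval from 0.942-fold to 1.53-fold.

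The third subunit gene, mes-3, on chromosome I, was the lowest of the 5 members. MES-3 was described as a protein without a clear counterpart in sequence outside nematodes. Its log2 ratios were 0.27, 0.41 and −0.28 in preps 1, 2 and 3, so prep 3 stood below 0 and the others above. The mean of 0.13 ± 0.36 (SD, n = 3) did not pass (limma adjusted p = 0.547), with a 95% interval from 0.853-fold to 1.41-fold, and without prep 2 it was −0.0069. The intervals of mes-2 and mes-3 both overlap that of mes-6, so a missed threshold does not show that the subunits differ.

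**Figure D1:**
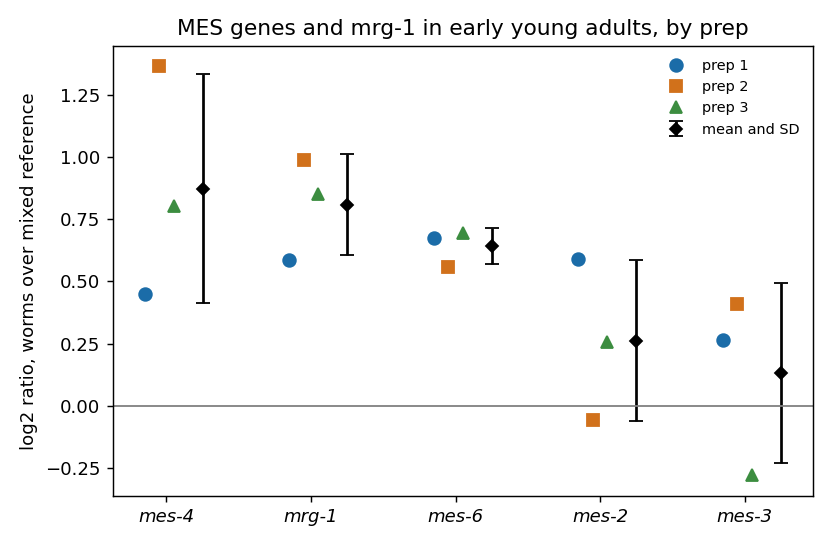
Log2 ratios of worms over the mixed reference for the 5 genes, with a symbol for each prep and the mean with its SD in black. All preps of mes-4, mrg-1 and mes-6 lie above 0, while mes-2 and mes-3 each have 1 prep below 0.

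In order of mean log2 ratio the genes ran mes-4, mrg-1, mes-6, mes-2 and mes-3, and these are differences of ratios to the reference and not of transcript levels. Whether neighbours in this order differ could not be decided by the exact test used here, since with 3 arrays its p cannot go below 0.25. The difference mes-4 minus mrg-1 was 0.06 ± 0.27 (SD, n = 3), with mes-4 higher on 1 array. The difference mrg-1 minus mes-6 was 0.17 ± 0.26, with mrg-1 higher on 2 arrays.

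Between the subunit genes, mes-6 minus mes-2 was 0.38 ± 0.27 (SD, n = 3), with mes-6 higher on all 3 arrays, and mes-2 minus mes-3 was 0.13 ± 0.53, with mes-2 higher on 2. The difference mes-6 minus mes-2 was thus larger than its SD, and the other neighbouring differences were smaller than theirs. Over the 10 pairs of members the smallest p of that exact two-sided sign-flip test was 0.25, the floor, and 0.625 after Benjamini-Hochberg adjustment over the pairs. The pairs at that p were mes-4 over mes-3, mrg-1 over mes-3, mes-6 over mes-2 and mes-6 over mes-3.

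Averaged by role, mes-4 and mrg-1 were at 0.52, 1.18 and 0.83 in preps 1, 2 and 3, against 0.51, 0.30 and 0.22 for the 3 PRC2 subunit genes. The sets were level in prep 1 and apart in preps 2 and 3. The difference was 0.49 ± 0.44 (SD, n = 3), and it was 0.0093 in prep 1, 0.87 in prep 2 and 0.60 in prep 3.

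Set among all genes, mes-4 lay above 92.1% of the mean log2 ratios, mrg-1 above 90.8% and mes-6 above 86.6%. For mes-2 the share was 70.9% and for mes-3 it was 61.5%. Array by array, mes-4 was above 77.9%, 96.7% and 90.4% of genes in preps 1, 2 and 3, and mes-6 above 86.6%, 81.6% and 87.8%. The place of mes-2 ranged from 46.4% in prep 2 to 83.7% in prep 1, and that of mes-3 from 29.8% in prep 3 to 76.5% in prep 2.

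**Figure D2:**
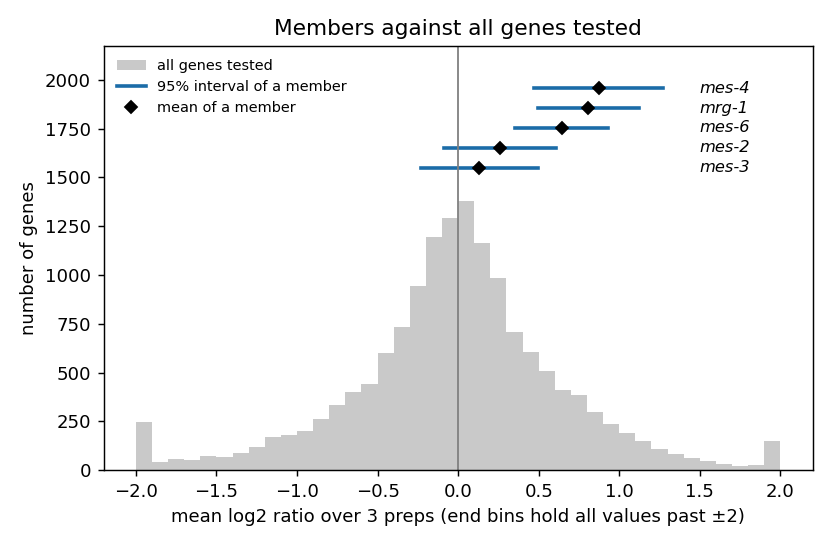
Number of genes by mean log2 ratio over the 3 preps (grey), with the mean and the 95% interval of each of the 5 genes drawn above. The intervals of mes-4, mrg-1 and mes-6 lie above 0, while those of mes-2 and mes-3 reach below it.

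All 5 genes are on autosomes, each on a different one, and the chromosomes differed in their median ratio. After the median of the chromosome was subtracted on each array, mes-4 stood at 0.96 ± 0.49 (SD, n = 3), on a chromosome whose median of −0.08 was the lowest among the autosomes. mrg-1 was at 0.66 ± 0.19 and mes-6 at 0.56 ± 0.07. mes-2 was at 0.17 ± 0.30, and mes-3 at −0.04 ± 0.42, on the chromosome with the highest median, 0.17. The order of the 5 genes was the same as before.

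Each member had other genes with nearly the same ratios on all 3 arrays, by Euclidean distance of the log2 ratios, a likeness over 3 arrays only and out of 15062 genes. Nearest to mes-4 were gei-6 at a distance of 0.06, srpa-72 at 0.06 and toca-2, which encodes an F-BAR protein, at 0.14. Nearest to mrg-1 were the nucleoside transporter gene ent-2, the shugoshin gene sgo-1 and the THO complex gene thoc-7, at 0.05, 0.05 and 0.07. Nearest to mes-6 were T02E1.2, DC2.5 and teg-4, which encodes a splicing factor subunit, at 0.04, 0.06 and 0.06.

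The genes that did not pass had neighbours of the same kind. Nearest to mes-2 were F28A10.2, the mitochondrial processing peptidase gene mppb-1 and the chemoreceptor family gene srt-44, at 0.03, 0.04 and 0.05. Nearest to mes-3 were hpo-11, W04B5.2 and the zinc finger gene ztf-25, at 0.06, 0.07 and 0.13.

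Of the genes annotated on either side of each member on its chromosome, 8 of 10 were measured and 2 of those passed the test, both above the reference. Over all genes tested 21.7% were above and 22.2% below. The gene dom-3, next to mes-3 and known to share an operon with it, was at 0.41, 0.25 and 0.05 in preps 1, 2 and 3. Its mean of 0.24 ± 0.18 (SD, n = 3) did not pass (limma adjusted p = 0.188), as that of mes-3 did not, and both genes were lowest in prep 3. On the other side of mes-3, dyf-1 was at −0.31 ± 0.26 and did not pass (adjusted p = 0.12), but did so without prep 1 (−0.42, adjusted p = 0.0249).

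Next to mes-4, the collagen gene col-162 was at 0.76 ± 0.53 (limma adjusted p = 0.00983), a call lost without prep 3 (0.48, adjusted p = 0.0922), and srd-17 was at −0.08 ± 0.21 and did not pass. Next to mrg-1, Y37D8A.8 was at 0.65 ± 0.43 (adjusted p = 0.0124), a call that ended when prep 2 (0.54, adjusted p = 0.066) or prep 3 (0.52, adjusted p = 0.0844) was left out. On the other side of mrg-1, spcs-2 at 0.35 ± 0.18 missed the threshold, and passed once prep 1 was left out (0.40, adjusted p = 0.0277). Next to mes-2, sdz-26 was at −0.13 ± 0.25, and next to mes-6, tag-77 was at 0.14 ± 0.38, and neither passed.

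The gene cks-1, listed with mes-6 on the shared probe, was on its own probe at 0.33, 0.28 and 0.13, a mean of 0.25 ± 0.10 (SD, n = 3) that did not pass (limma adjusted p = 0.156). Its log2 ratio was below that of mes-6 in each prep. The gene mes-1 shares the maternal-effect sterile name but encodes a receptor-like protein of cell polarity and no chromatin protein. It was at −0.44, 0.44 and 0.17, on both sides of 0, with a mean of 0.06 ± 0.45 (adjusted p = 0.829).

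Around the 5 members, lists of genes for other histone methylation and acetylation proteins were read from the same fit. These lists were chosen with earlier results of these data known, so their counts are a description only. Of the 49 genes measured, with dom-3, cks-1 and mes-1 counted among them, 25 passed above the reference, 4 passed below it and 20 did neither, with a median log2 ratio of 0.45, against 21.7% above, 22.2% below and a median of 0.0021 over all genes tested. The 4 genes below, jmjd-3.1, sor-3, set-30 and hpl-1, are all on the X chromosome, while all 25 above are on autosomes. This split stands beside a difference over all genes tested. On the X chromosome 6.5% of genes were above the reference, the lowest share of any chromosome, against 21.7% over all genes. The median ratio of the X chromosome was −0.22, also the lowest. The part of the chromosome in the calls of the listed genes was not tested. Of the 25 calls above, 16 held without each prep in turn and 14 held against a 1.2-fold margin. The members' 3 calls all held under both.

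Enzymes that remove the PRC2 mark lay on both sides of the reference. Of their genes jmjd-1.2 is on chromosome IV, and the others listed are on the X chromosome. Of 5 genes, 1 passed above, 1 passed below and 3 did not pass, with a median of 0.02. The gene jmjd-1.2, whose product removes methyl groups from H3K9 and H3K27, was at 0.96, 1.06 and 0.72, a mean of 0.92 ± 0.17 (SD, n = 3; limma adjusted p = 0.000562). The H3K27 demethylase gene jmjd-3.1 was at −0.69, −1.13 and −1.204, all below 0, a mean of −1.01 ± 0.28 (adjusted p = 0.000528). The gene utx-1, for a related demethylase, was at 0.02 ± 0.05 and its relative jmjd-3.2 at −0.32 ± 0.13, and neither passed. The call for jmjd-3.2 changed without prep 1 (−0.35, adjusted p = 0.0409).

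Of the 5 genes for proteins that act like Polycomb repressive complex 1 (PRC1), 1 passed above the reference, 1 passed below it and 3 did neither, with a median of 0.0082. The gene mig-32, which encodes a RING-type protein of that complex, was at 1.05, 0.71 and 0.74, a mean of 0.83 ± 0.19 (SD, n = 3; limma adjusted p = 0.00102). The gene of its partner, spat-3, was at −0.14, 0.30 and −0.14 and did not pass. sor-3 was at −0.48 ± 0.28 (adjusted p = 0.0258), a call lost without any 1 of preps 1, 2 and 3 (−0.32, −0.56 and −0.56, adjusted p = 0.053, 0.0518 and 0.0515).

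Beside mes-4, the other H3K36 methyltransferase gene, met-1, was above the reference with a similar order of preps. It was at 0.19, 1.12 and 0.78 in preps 1, 2 and 3, with prep 1 lowest and prep 2 highest, as for mes-4. The mean of 0.70 ± 0.47 (SD, n = 3) passed (limma adjusted p = 0.0107), but not without prep 2 (0.49, adjusted p = 0.101). The gene of an H3K9 and H3K36 demethylase, jmjd-2, was at 0.33, 0.33 and −0.08 and did not pass (adjusted p = 0.309).

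Of 10 measured genes for MRG-1 partners and acetylation complexes, out of 14 listed, 6 passed above the reference, 0 passed below it by limma, also at an unadjusted p of 0.05, and 4 did neither, with a median of 0.56. The PHD finger gene athp-1 was the highest, at 1.34, 1.29 and 0.85, a mean of 1.16 ± 0.27 (SD, n = 3; limma adjusted p = 0.000225). The ubiquitin ligase gene rfp-1 was at 0.54, 0.80 and 0.63, a mean of 0.66 ± 0.13 (adjusted p = 0.00312). trr-1, of the acetyltransferase complex of MYS-1, was at 0.82 ± 0.17 (adjusted p = 0.00102). These 3 calls held without each prep.

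The co-repressor gene sin-3 was at 0.31, 0.73 and 0.68, a mean of 0.57 ± 0.23 (SD, n = 3; limma adjusted p = 0.00891), a call that ended when prep 2 (0.50, adjusted p = 0.0953) or prep 3 (0.52, adjusted p = 0.0664) was left out. The histone deacetylase gene hda-2 was at 0.59 ± 0.15 (adjusted p = 0.00599), and the acetyltransferase gene mys-1 was at 0.54 ± 0.23 (adjusted p = 0.012), a call lost without prep 2 (0.56, adjusted p = 0.0561). The histone deacetylase gene hda-1 was at 0.38 ± 0.27 and the acetyltransferase gene mys-2 at 0.45 ± 0.40, and neither passed. Both did without prep 1 (0.51, adjusted p = 0.00743, and 0.67, adjusted p = 0.00149), where calls over all genes rose too.

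Of 12 genes for methylation and demethylation of H3K4, a mark of active promoters, 7 passed above the reference, 1 passed below it and 4 did neither, with a median of 0.48. Of the 7 calls above, 5 held without each prep in turn and 4 held against a 1.2-fold margin. The calls of cfp-1 (0.44 ± 0.11) and set-16 (0.52 ± 0.24) were each lost without prep 2 or prep 3. The methyltransferase gene set-2 was at 1.14, 1.40 and 0.71, a mean of 1.08 ± 0.35 (SD, n = 3; limma adjusted p = 0.000504). The demethylase gene spr-5 was at 0.76 ± 0.15 and the methyltransferase gene set-17 at 0.72 ± 0.10. The complex subunit genes ash-2 and rbbp-5 were at 0.72 ± 0.32 and 0.61 ± 0.13. The SET domain gene set-30 was at −1.24, −1.02 and −0.82, the lowest of all 49, with a mean of −1.03 ± 0.21 (adjusted p = 0.000345).

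Of 12 genes for H3K9 methylation, another silencing mark, and for its readers, 9 passed above the reference, 1 passed below it and 2 did neither, with a median of 0.62. Of the 9 calls above, 5 held without each prep in turn, and 5 held against a 1.2-fold margin. The chromodomain gene cec-4, whose product anchors such chromatin at the nuclear envelope, was at 1.11, 1.42 and 1.22, a mean of 1.25 ± 0.16 (SD, n = 3; limma adjusted p = 9.29e-05). arle-14, for a cofactor of the H3K9 methyltransferase MET-2, was at 1.001 ± 0.16, cec-3 at 0.86 ± 0.18 and set-32 at 0.88 ± 0.22.

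The H3K9 methyltransferase genes met-2 and set-25 were at 0.56 ± 0.34 (limma adjusted p = 0.0161) and 0.65 ± 0.28 (adjusted p = 0.00593), and both calls were lost without prep 2 (0.40, adjusted p = 0.197, and 0.50, adjusted p = 0.0922). The 2 HP1 genes lay on opposite sides. hpl-2 was at 0.45, 0.63 and 0.43 (adjusted p = 0.0114) and hpl-1 at −0.59, −0.55 and −0.39 (adjusted p = 0.0107). The call for hpl-2 ended when prep 2 (0.44, adjusted p = 0.146) or prep 3 (0.54, adjusted p = 0.0505) was left out, and that for hpl-1 when prep 2 was (−0.49, adjusted p = 0.0987).

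**Figure D3:**
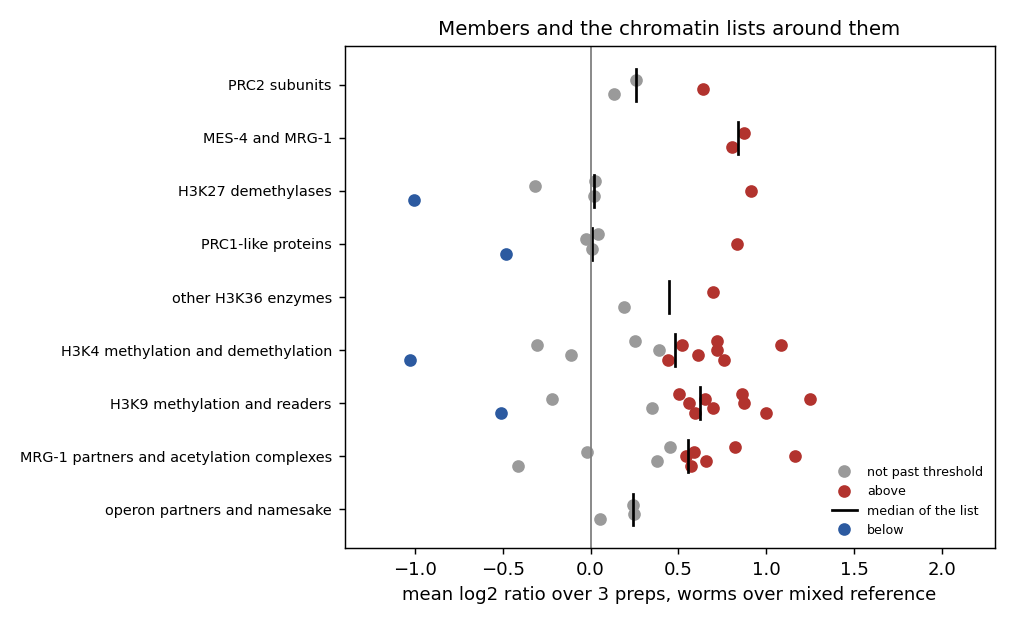
Mean log2 ratio over the 3 preps for each measured gene of the PRC2 subunits, MES-4 with MRG-1 and the lists around them, coloured by the limma call at an adjusted p of 0.05, with the median of each list as a black bar. The lists for H3K4, H3K9 and MRG-1 partners have medians of 0.48, 0.62 and 0.56, while the H3K27 demethylases and the PRC1-like proteins have medians close to 0.

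Germline markers as a list were above the reference, as were 3 of the 5 members. The order of the list's means by prep differed from that of mes-4 and mrg-1, but was that of all 5 members averaged. All 5 members averaged 0.54 ± 0.10 (SD of the 3 prep means), against 1.26 ± 0.21 for 17 measured germline markers, of which 16 were above the reference and 1 did not pass. The germline markers averaged 1.34, 1.42 and 1.03 in preps 1, 2 and 3, and all 5 members 0.51, 0.65 and 0.46, both lowest in prep 3. In contrast, mes-4 and mrg-1 were lowest in prep 1. So were the germline markers htp-3, pgl-3, oma-2 and syp-2, while the other measured germline markers were lowest in prep 3. Beside mes-4 at 0.87, the meiotic axis genes htp-3 and him-3 were at 0.87 ± 0.36 and 0.88 ± 0.07, and the P granule genes glh-1 and pgl-1 at 2.52 ± 0.64 and 2.11 ± 0.43. Of the germline markers syp-2 alone did not pass, at 0.22 ± 0.25, a mean between those of mes-3 and mes-2.

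Of 12 sperm markers 10 were above and 2 did not pass, with means by prep between 1.82 and 2.22. Neuron markers averaged between −1.16 and −0.85 by prep, with 7 of 11 below, and embryo markers between −0.49 and −0.32, with 4 of 8 below and 1 above. Of 9 muscle markers 3 were above and 6 did not pass, with an average of 0.35 ± 0.07 (SD of the 3 prep means). Intestine markers went both ways, with 4 of 10 above and 4 below, from 2.77 for cpr-5 to −3.47 for mtl-1, and an average of −0.02 ± 0.19. Hypodermis markers did so too, with 4 of 10 above and 6 below, from 2.60 for col-19 to −2.65 for ptr-4, and an average of −0.50 ± 0.20. The part of germ cell number in the ratios of the 5 genes was not tested.

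**Figure D4:**
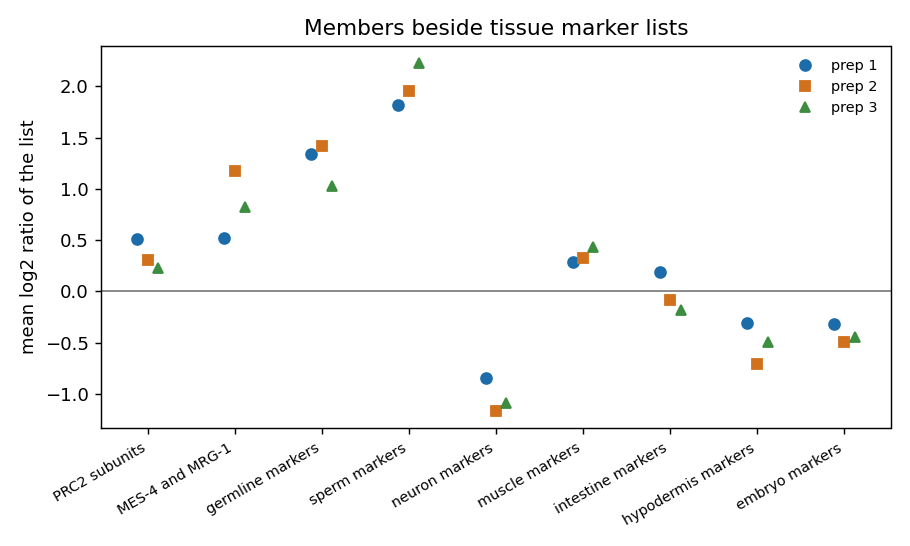
Mean log2 ratio by prep for the 3 PRC2 subunit genes, for mes-4 with mrg-1, and for 7 lists of tissue markers. The PRC2 subunits lie between 0.22 and 0.51 and mes-4 with mrg-1 between 0.52 and 1.18, against 1.03 to 1.42 for the germline markers.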

How the data were processed

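Each deposited value is a log2 ratio of a worm prep (channel 2) to a mixed reference (channel 1), per the labels. Base 2 was inferred: for ratios below 1, powers of 2 fell on steps of 0.001 (tolerance 0.01 of a step) in 100.0% of cases, but powers of e in 3.12% and of 10 in 1.46%. Dyes, background correction, normalization and software are not given. Array medians were 0.007, 0.006 and 0.016, so the ratios were left as deposited. Their centring is near 0, and the normalization stays unknown.

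Of 20000 probes, 19664 had values on all 3 arrays. The platform annotation gave 1 symbol to 15655 probes and several to 198, and 4147 were unlisted. A table of WBcel235 genes held 15569 of the single symbols and supplied names, chromosomes and neighbours only. Probes of 1 gene were averaged (428 genes). limma 3.58.1 (R 4.3.3) tested mean log2 ratios against 0 (lmFit, eBayes, two-sided) over 15062 genes. Its prior had 7.34 degrees of freedom and an SD of 0.25. The spread of the reference is outside the test, and 3 arrays limit the precision. The script was tested on simulated data.

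The members and lists were chosen with earlier results of these data known. The text names the members, genes of the lists with at least the highest and lowest of each, the 3 genes nearest to each member in log2 ratio, and its annotated neighbours. Other genes, such as col-19, were named after their values were seen. The settings varied were the centring, scale and quantiles of the arrays, the number of arrays required (2), the fit (by probe, robust, without moderation, or with a 1.2-fold margin), centring in blocks of 200 probes, the sign, and the preps included. Averaging in the shared mes-6 probe and a size limit of 0.5 were added after seeing the data. Sequences and promoter motifs were not analysed here.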

Additional observations from a re-analysis of the deposited data

How the results depend on the processing

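The calls of mes-4, mrg-1 and mes-6 above the reference held under each alternative except 2, and mes-2 and mes-3 passed under none. Without moderation of the variance, 0 members, 0 of the 49 listed genes on either side, and 0 of all genes above or below passed, with mes-4 still at 0.87 (adjusted p = 0.182), mrg-1 at 0.81 (adjusted p = 0.0991) and mes-6 at 0.64 (adjusted p = 0.0762), so the calls rest on the variance shared across genes. At an unadjusted p of 0.05 that test without moderation gave 2 members above and 0 below, 20 and 4 of the listed genes, and 2587 and 2812 of all genes. With the sign turned, mes-4, mrg-1, mes-6, mes-2 and mes-3 were by construction at −0.87, −0.81, −0.64, −0.26 and −0.13, with 0 members above and 3 below, and 4 listed genes above and 25 below. Against a 1.2-fold margin 1972 genes were above and 2085 below, and 14 and 2 of the listed genes, against 3275, 3347, 25 and 4 against 0. With blocks of probes centred, mes-3 was at −0.0368, dom-3 at −0.0085 and hpo-11 at −0.0038, and with centred arrays spat-3 was at −0.0014. The centring in blocks also took away the calls of hpl-2 (0.25, limma adjusted p = 0.143) and sor-3 (−0.31, adjusted p = 0.076). It gave calls to dyf-1 (−0.56, adjusted p = 0.0076) and hda-1 (0.43, adjusted p = 0.037). The cause of these changes was not tested. With a prep left out, mes-4 ranged from 0.63 to 1.08, mrg-1 from 0.72 to 0.92, mes-6 from 0.62 to 0.68, mes-2 from 0.0985 to 0.42 and mes-3 from −0.0069 to 0.34. Of the other named genes that did not pass, the range crossed 0 for epc-1 (−0.94 to 0.0893), hpo-11 (−0.0267 to 0.29), mes-1 (−0.13 to 0.30), sdz-26 (−0.21 to 0.0171), spat-3 (−0.14 to 0.0819), srd-17 (−0.16 to 0.0405), tag-77 (−0.0525 to 0.33) and utx-1 (−0.0041 to 0.0482). With the shared probe averaged in, mes-6 was at 0.58 (adjusted p = 0.00569). No paired analysis was possible because all arrays form 1 group.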

Other observations

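The gene epc-1, the counterpart of Drosophila Enhancer of Polycomb and the lowest of the MRG-1 partners and acetylation complexes, was the least even of the listed genes across preps. It was at −0.46, 0.64 and −1.42 in preps 1, 2 and 3, a mean of −0.41 ± 1.03 (SD, n = 3) that did not pass (limma adjusted p = 0.305). Without prep 2 it was at −0.94 (adjusted p = 0.000416). The values left, −0.46 and −1.42, were far apart, and the p of that fit follows the mean and not this spread. Of the H3K4 genes, wdr-5.1 at 0.39 ± 0.28 did not pass (adjusted p = 0.0595), except without prep 1 (0.55, adjusted p = 0.00375).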
